A study of Homo sapiens with 8 samples.

Results

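Histone chaperones are proteins that hold histones away from DNA and hand them over where chromatin is assembled. The set described here is 10 genes, taken by symbol from a table of 60606 genes: CHAF1A, CHAF1B, ASF1A, ASF1B, NASP, HAT1, HIRA, DAXX, ATRX and NAP1L1. The table holds read counts of total RNA from HEK293 cells, an established human embryonic kidney line. The 10 genes serve in the storage and acetylation of new histones, deposition behind the replication fork, deposition outside replication, and the handling of H2A-H2B. Cells of the control group were transfected with a scrambled mimic and cells of the other group with a mimic of the 3′ tRNA-derived RNA (tDR) of tRNA-Asp-GTC, both at 50 nM with Lipofectamine RNAiMax, and both were harvested at 48 hours. Each group has 4 libraries, with totals of 5848305 to 10557740 counts. All cells are of 1 line. Separate cultures are not named in the labels, and each p-value then reflects only how far libraries of a group spread, which may be technical.

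New H3-H4 dimers are bound in the cytoplasm by NASP, acetylated by HAT1 with its partner RBBP7, and passed through ASF1A or ASF1B to a depositing complex. During DNA replication that complex is CAF-1 (CHAF1A, CHAF1B and RBBP4), which works at the sliding clamp PCNA. Outside replication HIRA with UBN1 and CABIN1, or DAXX with ATRX, deposits the variant H3.3. NAP1L1 is a carrier of H2A-H2B.

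NASP and NAP1L1 had less RNA in the tDR libraries: NASP fell by 17.7% and NAP1L1 fell by 19.9%. Neither CAF-1 gene, nor ASF1B, HIRA, DAXX or ATRX, passed the test, and their fitted changes lay between -7.28% and 0.418%. ASF1A and HAT1 were listed at 0 counts in all 8 libraries and could not be compared. Thus 2 of the 8 members that passed the filter on low counts fell and 0 rose (quasi-likelihood test of edgeR, called where the p adjusted by Benjamini-Hochberg over 17184 genes is under 0.05; 0 rose also at an unadjusted p under 0.05 and by DESeq2). Over all genes tested 24.3% were called, 11.4% lower and 12.8% higher. With scaling to library size alone the split over all genes was 907 lower and 3295 higher in place of 1962 and 2206, and NASP and NAP1L1 were still called lower. Among the 5321 genes within the members' range of mean level, 5.59 to 9.76 log2 CPM (counts scaled by library size), 27.7% were called lower and 5.51% higher, so 2 of 8 is close to the share of genes with like levels. The median log2 fold change was -0.09 for the 8 members, 0.02 for all genes tested and -0.08 for the genes of that level range.

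NASP, the storage chaperone of H3-H4 (chromosome 1, 45583846 to 45618904 on GRCh38, GENCODE 29, plus strand), stood at 746, 834, 749 and 764 CPM in control replicates 1 to 4 and at 662, 650, 604 and 631 CPM in tDR replicates 1 to 4. TMM factors were used in scaling all CPM. Every tDR library lay below every control library, and control replicate 2 was the highest of the 8. The means were 773 ± 41.1 and 637 ± 25.2 CPM (SD, n = 4). On the log2 scale tDR over control was -0.28 ± 0.045 (SE; adjusted p = 2.81e-06 by edgeR with Benjamini-Hochberg correction). Without control replicate 2 it was -0.25. In bulk RNA, fewer cells expressing a gene and less of its RNA per cell cannot be told apart, here and for the genes that follow.

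HAT1, the cytoplasmic acetyltransferase of new histone H4, gave no value, as described below. Its partner RBBP7 had the largest called decrease among the genes that work with the H3-H4 chaperones. RBBP7 stood at 341, 336, 301 and 314 CPM in the controls and at 245, 246, 233 and 228 CPM with the tDR, with no overlap between the groups. Its log2 fold change was -0.44 ± 0.049 (SE; adjusted p = 4.39e-10 by edgeR with Benjamini-Hochberg correction). RBBP4, the close relative that serves as the third CAF-1 subunit, was at -0.08 on the log2 scale without passing (adjusted p = 0.308 by edgeR with Benjamini-Hochberg correction). Of the exon bases of RBBP4 61.8% lie inside the span of SYNC.

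**Figure D1:**
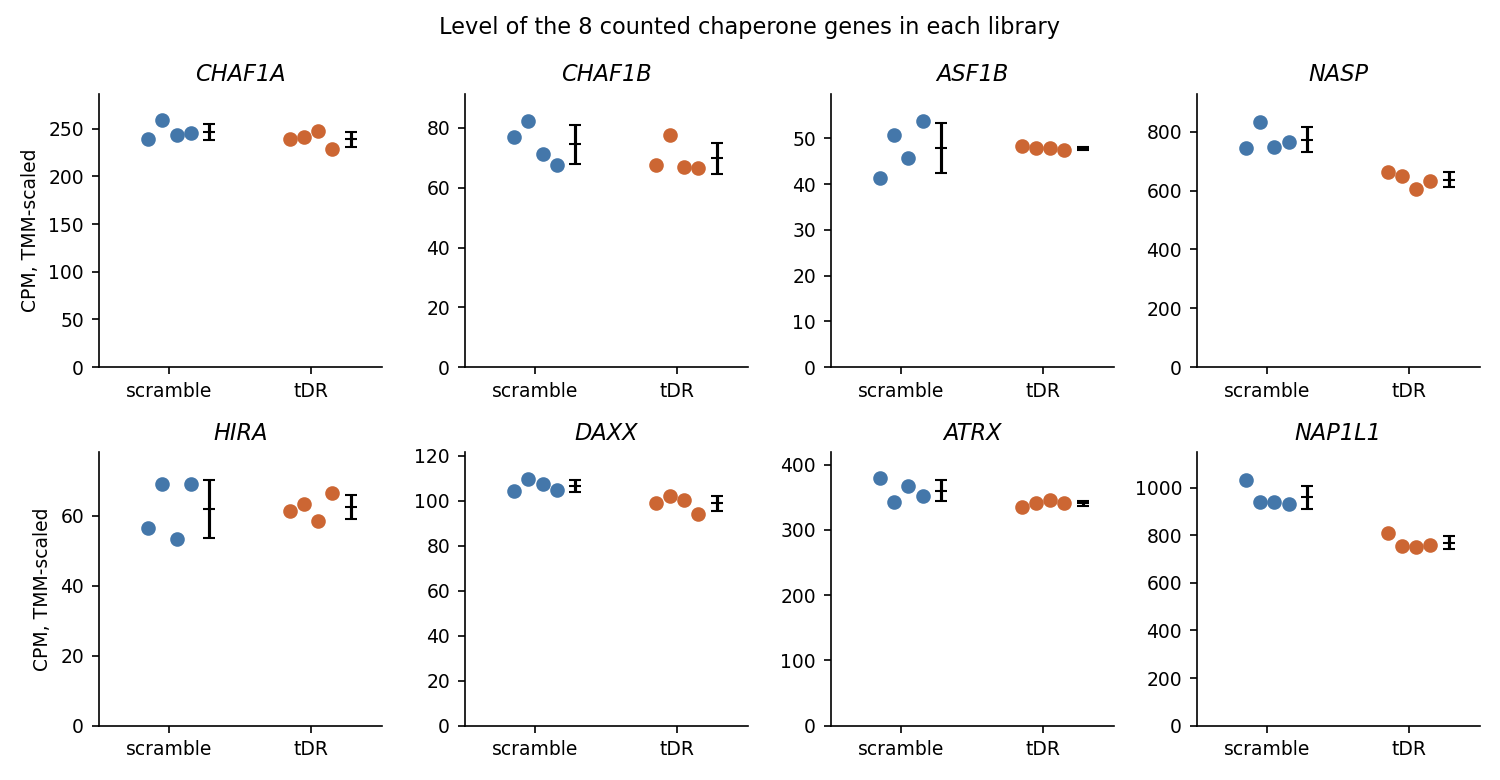
CPM (TMM-scaled, y axis from 0) of the 8 members with counts, 1 panel per gene, in the scramble and tDR libraries; dots are libraries in the order of replicates 1 to 4 and bars are mean ± SD (n = 4). The groups stand apart for NASP, NAP1L1 and, by a narrow gap, DAXX, and overlap for the other 5.

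CAF-1, the complex that places H3-H4 on newly copied DNA, had no gene that passed the test. CHAF1A, its large subunit (chromosome 19, 4402662 to 4445018), was counted at 239, 259, 243 and 245 CPM in the controls and at 239, 241, 247 and 228 CPM with the tDR. The groups overlapped, and the log2 fold change was -0.05 ± 0.049 (SE, 95% interval -0.14 to 0.05; adjusted p = 0.515 by edgeR with Benjamini-Hochberg correction). CHAF1B, its middle subunit (chromosome 21, 36385378 to 36419015), stood at 77.0, 82.3, 71.4 and 67.6 CPM in the controls and at 67.7, 77.8, 67.0 and 66.7 CPM with the tDR. The groups overlapped, and in the tDR group replicate 2 stood above the other 3, which lay between 66.7 and 67.7 CPM. The log2 fold change of CHAF1B was -0.10 ± 0.072 (SE, 95% interval -0.24 to 0.05; adjusted p = 0.349 by edgeR with Benjamini-Hochberg correction). The ratio of the 2 subunits in a library, which no scaling affects, was 3.32 ± 0.242 in controls and 3.43 ± 0.251 with the tDR (SD, n = 4; exact two-sided permutation p = 0.543 over 70 assignments, Benjamini-Hochberg adjusted 0.629 over 2 ratios).

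ASF1B, the paralogue of ASF1A that is typical of dividing cells (chromosome 19, 14119509 to 14136956), had the lowest CPM of the members counted. It ranged from 41.3 to 53.7 CPM in the controls and from 47.4 to 48.3 CPM with the tDR, so all tDR libraries lay inside the control range. The means were 47.9 ± 5.48 and 47.8 ± 0.358 CPM (SD, n = 4), and the log2 fold change was 0.00 in size to 2 decimals, with a 95% interval of -0.17 to 0.16. ASF1A could not be set beside it.

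The members that deposit H3.3 outside replication did not pass the test. HIRA (chromosome 22, 19330698 to 19447450) stood at 56.4, 69.1, 53.2 and 68.9 CPM in the controls and at 61.3, 63.3, 58.3 and 66.5 CPM with the tDR. Its log2 fold change was 0.01 ± 0.078 (SE, 95% interval -0.15 to 0.16; adjusted p = 0.967 by edgeR with Benjamini-Hochberg correction). Of the exon bases of HIRA 79.8% lie inside the spans of C22orf39, MRPL40 and RN7SL168P. DAXX, the H3.3 chaperone (chromosome 6, 33318558 to 33323016), stood at 104, 110, 107 and 105 CPM in the controls and at 98.7, 102, 100.4 and 94.1 CPM with the tDR. Every tDR library of DAXX was below every control library, as were those of NASP and NAP1L1 and of 10.8% of all genes tested, but the change did not pass (log2 fold change -0.11 ± 0.059, SE; adjusted p = 0.18 by edgeR with Benjamini-Hochberg correction).

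ATRX, the chromatin remodeller that works with DAXX at repeats and telomeres (chromosome X, 77504878 to 77786233), ranged from 342 to 379 CPM in the controls and from 335 to 345 CPM with the tDR. Its log2 fold change was -0.08 ± 0.046 (SE, 95% interval -0.17 to 0.01; adjusted p = 0.206 by edgeR with Benjamini-Hochberg correction). With a correction for gene length and GC content ATRX was at -0.14 and passed (adjusted p = 0.0208 by edgeR with Benjamini-Hochberg correction), and over its 18 alternatives the adjusted p by edgeR or DESeq2 ranged from 0.0208 to 0.976. With the same correction DAXX was at 0.02 and HIRA at -0.15, and neither passed. The ratio of DAXX to ATRX was 0.296 ± 0.0186 in controls and 0.290 ± 0.01 with the tDR (SD, n = 4; exact two-sided permutation p = 0.629, Benjamini-Hochberg adjusted 0.629 over 2 ratios).

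NAP1L1, the carrier of H2A-H2B (chromosome 12, 76036587 to 76085033), had the highest CPM of the set and the largest decrease. It stood at 1031, 938, 940 and 930 CPM in control replicates 1 to 4 and at 810, 754, 750 and 761 CPM in tDR replicates 1 to 4. The groups did not overlap, and replicate 1 was the highest in each. The means were 960 ± 47.7 and 769 ± 27.7 CPM (SD, n = 4). The log2 fold change was -0.32 ± 0.043 (SE; adjusted p = 1.04e-07 by edgeR with Benjamini-Hochberg correction), and without control replicate 1 it was -0.29. Its processed copies took few reads: NAP1L1P1 had at most 5 counts and NAP1L1P3 at most 10 counts in any library, and NAP1L1P2 had 0.

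**Figure D2:**
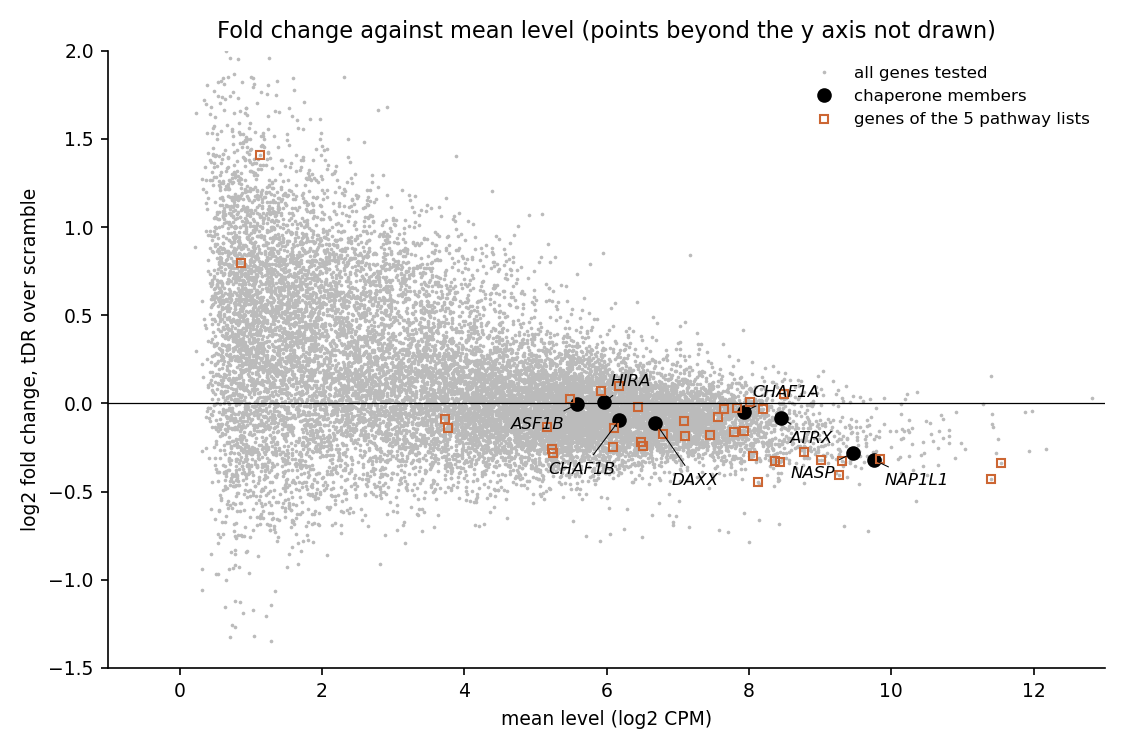
Log2 fold change of tDR over scramble (y axis) against mean level in log2 CPM (x axis) for all 17184 genes tested (grey), the 8 members (black) and the genes of the 5 pathway lists (open squares). NASP and NAP1L1 are the members with the highest mean CPM, not scaled by length. Of the 461 genes with a mean over the 8 libraries of at least 300 CPM 62% were called lower.

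That NASP and NAP1L1 passed and 6 members did not does not show that the members differ, so the ratio of each pair was compared between the groups. Of the 12 ratios of NASP or NAP1L1 to another member, 9 did not overlap between the groups, with NASP or NAP1L1 relatively lower in the tDR libraries. NASP and NAP1L1 were set apart by their calls in these same libraries, so this count is no separate support. The ratios also share genes, and no share over other pairs of genes is given beside it. Of the 15 ratios among the other 6 members 1 did not overlap, that of CHAF1A to DAXX, and the ratio of NASP to NAP1L1 overlapped (log2 difference 0.04; exact two-sided permutation p = 0.6). The log2 ratio of HIRA to NAP1L1 was higher by 0.34 in the tDR libraries than in the controls, and that of ASF1B to NAP1L1 by 0.33. The lowest exact two-sided permutation p was 0.0286, the smallest that 70 assignments can give. Adjusted over the 28 ratios (Benjamini-Hochberg) it was 0.08, so no ratio passed after adjustment. With that smallest p a ratio that differed alone could not pass whatever its size, so this result does not show that the ratios are alike.

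To allow for length, levels of genes were set in order as CPM per kilobase (kb) of exon outside the spans of other genes. That is the part that appears to have been counted. The lowest and highest CPM named above are not scaled by length. On this scale the controls had 93.1 ± 4.95 for NASP, 71.2 ± 9.53 for HIRA, 60.1 ± 2.12 for CHAF1A and 56.4 ± 2.80 for NAP1L1 (SD, n = 4). DAXX followed at 49.0 ± 1.16, ASF1B at 21.0 ± 2.41, ATRX at 18.7 ± 0.844 and CHAF1B at 15.05 ± 1.303 CPM per kb. Control libraries overlapped between HIRA and CHAF1A, between CHAF1A and NAP1L1, and between ASF1B and ATRX, so these neighbours in the order were not separate. The value of HIRA rests on 0.869 kb. Per kb of gene span outside other genes the order changed, with DAXX first at 37.7, NASP at 22.2 and NAP1L1 at 20.0. ATRX, which spans 281 kb, was then last at 1.28 CPM per kb. The order of levels thus depends on the length used, and neither order is settled here.

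The 2 members without counts share a kind of position in the genome. ASF1A (chromosome 6, 118894220 to 118909167, plus strand) lies whole inside the span of MCM9 on the minus strand, and HAT1 (chromosome 2, 171922448 to 171983682, plus strand) lies whole inside the span of SLC25A12, also on the minus strand. Only 5.44% of the exon bases of ASF1A, and 0% of those of HAT1, fall on an exon of the other gene. Of 868 protein-coding genes whose whole span lies inside antisense genes, 98.2% had 0 counts in all libraries, against 5.81% of the 7114 that overlap no gene. Of the 485 among them with no exon on an exon of the other gene, 99.2% were at 0. The 0 counts of ASF1A and HAT1 therefore set no limit on their RNA, and no statement on their expression in HEK293 cells can be drawn from this table. The same holds in part for HIRA, and for DAXX, with 29.5% of its exon bases inside another gene; for the other 6 members counted the share was at most 4.51%.

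**Figure D3:**
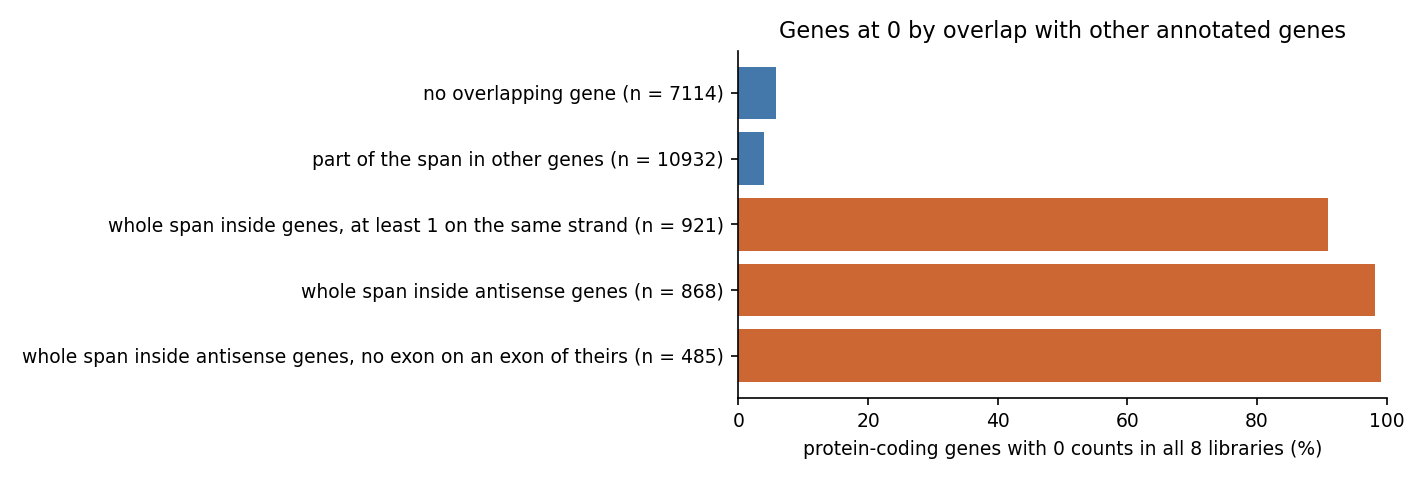
Percent of protein-coding genes (x axis) with 0 counts in all 8 libraries, by how the gene lies among the other genes of GENCODE 29 (n in each label). Genes that lie whole inside other genes, as ASF1A and HAT1 do, are nearly all at 0, and genes with free span are not.

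Promoter letters were searched because E2F factors drive many genes of DNA replication. The 6 forms TTTGGCGC, TTTCCCGC, TTTCGCGC, TTTGCCGC, TTTGGCGG and TTTCCCGG were searched on both strands from 250 bases before to 50 bases after the RefSeq start (GRCh38.p14). RefSeq promoters matched 8 of the 10 members, all but DAXX and ATRX, and 2 of the 8 held a form, against 5.33% of all 35116 promoters in the table. Those promoters were not matched to the members in gene type, expression or base content, and enrichment was not tested. The 2 sites shown are all the matches found in members, and both belong to members that did not pass the test. A part of E2F factors in these data was not tested. NASP and NAP1L1 held none of these letters in this window. Capitals mark the matched letters, which in CHAF1A are the reverse complement of TTTGGCGG at positions -4 to 4 around the start and in HIRA lie at -45 to -38. The printed stretches are chr19:4402625-4402654 on the plus strand and chr22:19431760-19431789 on the minus strand.
CHAF1A: cgccgcggttcCCGCCAAAtacgagcgcgg
HIRA: gtggggagcggTTTCCCGCcggggcgattt

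Other genes of histone supply were read from 5 lists of 41 genes, of which 38 were tested, 21 fell, 1 rose and 16 did not pass. Over the 38 the median log2 change was -0.17. Beside all genes tested (11.4% lower), the list with most decreases was that of H2A-H2B and other acidic chaperones, where 9 of 12 tested genes fell, with a median of -0.29. Among all genes the share called lower differed with level, at 62% of the 461 genes with a mean over the 8 libraries of at least 300 CPM and 10% of the 16723 genes under it. Within the members' range of mean level it was 27.7% of 5321 genes. On this list all 6 genes at or above 300 CPM were called lower and 3 of the 6 under it. NPM1, the abundant nucleolar chaperone, went from 3100 ± 58.1 to 2303 ± 118 CPM (SD, n = 4), NCL, nucleolin, from 3337 ± 177 to 2638 ± 105 CPM, and ANP32B from 699 ± 39.0 to 528 ± 37.3 CPM. In each of these 3 every tDR library lay below every control library, as for 10.8% of all genes tested. These 3 were named for the lowest p on their list, so this separation is no separate support.

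Of 8 tested partners of the H3-H4 chaperones 5 fell, with a median of -0.17. Beside this, 11.4% of all genes tested were called lower, and 27.7% of the 5321 genes in the members' range of mean level. MCM2, the helicase subunit that also binds H3-H4, went from 294 ± 26.7 to 239 ± 13.1 CPM, and DNAJC9, a heat shock co-chaperone of histones, from 73.8 ± 6.59 to 62.2 ± 3.60 CPM. DNAJC9, of which 81.1% of exon bases lie inside other genes, lost its call when libraries were scaled to their size alone (-0.16 on the log2 scale) or background was subtracted (-0.21). Under either setting 2 rather than 5 partners were called lower, and without tDR replicate 3 the count was 3.

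Of the 5 tested chaperones of transcription 3 fell, with a median of -0.28. All 3 were among the 4 at or above 300 CPM, so this count is near the 62% of all genes at that level. They were both subunits of FACT, which opens nucleosomes ahead of RNA polymerase, SUPT16H (707 ± 15.7 to 564 ± 26.2 CPM) and SSRP1 (478 ± 38.4 to 395 ± 15.5 CPM), and DEK (575 ± 19.1 to 461 ± 22.4 CPM). Among the genes of centromere assembly MIS18A fell (-0.28), and it was not called when libraries were scaled to their size alone (-0.20). It lost its call also with correction for length and GC content (-0.13), with background subtracted (-0.23) and without tDR replicate 2 (-0.26).

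Partners of HIRA, DAXX and ATRX had a median of -0.03, near that of all genes. The HIRA partners UBN1 (-0.10) and CABIN1 (-0.03) did not pass, but CABIN1 was called lower with correction for length and GC content (-0.23). The genes of the deposited variant itself, H3-3A (-0.17) and H3-3B (-0.18), fell, and both calls ended when libraries were scaled to their size alone (-0.09 and -0.10), with background subtracted (-0.12 for each) and with correction for length and GC content, where H3-3A turned to 0.05 and H3-3B was at -0.06. The call of H3-3A ended also without control replicate 1 (-0.14) or tDR replicate 2 (-0.15) or 4 (-0.16). SP100, a nuclear body gene, was the 1 gene called higher, from 1.08 ± 0.142 to 2.85 ± 0.63 CPM. Its estimated background, from the count density over olfactory receptor genes, came to 132% of its counts, and after subtraction it was too low to be tested.

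**Figure D4:**
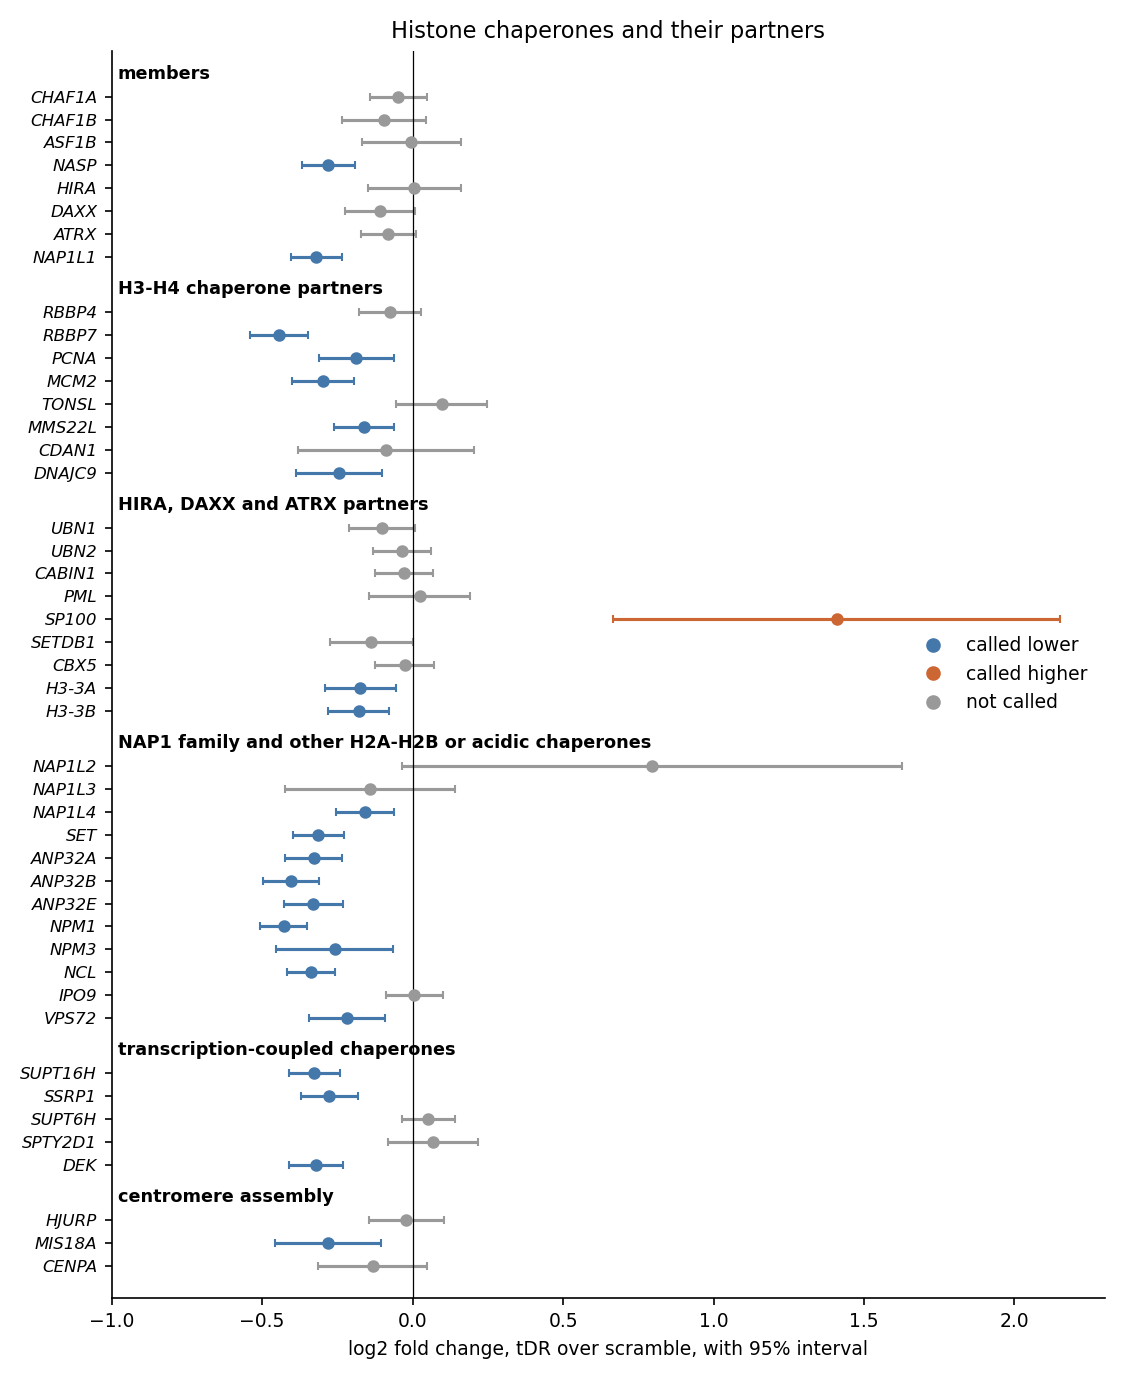
Log2 fold change of tDR over scramble (x axis) with its 95% interval for each tested member and the tested genes of the 5 pathway lists, with 1 gene left out; colour gives the call (edgeR, adjusted p under 0.05). NASP and NAP1L1 are called lower among the members, and 9 of 12 tested genes of the NAP1 and acidic chaperone list are.

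The libraries differed between groups in more than these genes. The count density over olfactory receptor genes was 0.0141 to 0.0185 CPM per kb of span in the controls and 0.0232 to 0.0256 in the tDR libraries, with no overlap. It came to at most 3.70% of the counts of any member counted, 0.0984% for NASP and 0.111% for NAP1L1, and with it subtracted both were still called lower. All 8 marker genes known for HEK293 were detected, VIM at 144 to 164 CPM and NEFM at 163 to 246 CPM among them, while 10 markers of blood, endothelium, liver, heart, astrocytes and differentiated kidney reached at most 4.57 CPM in any library.

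**Figure D5:**
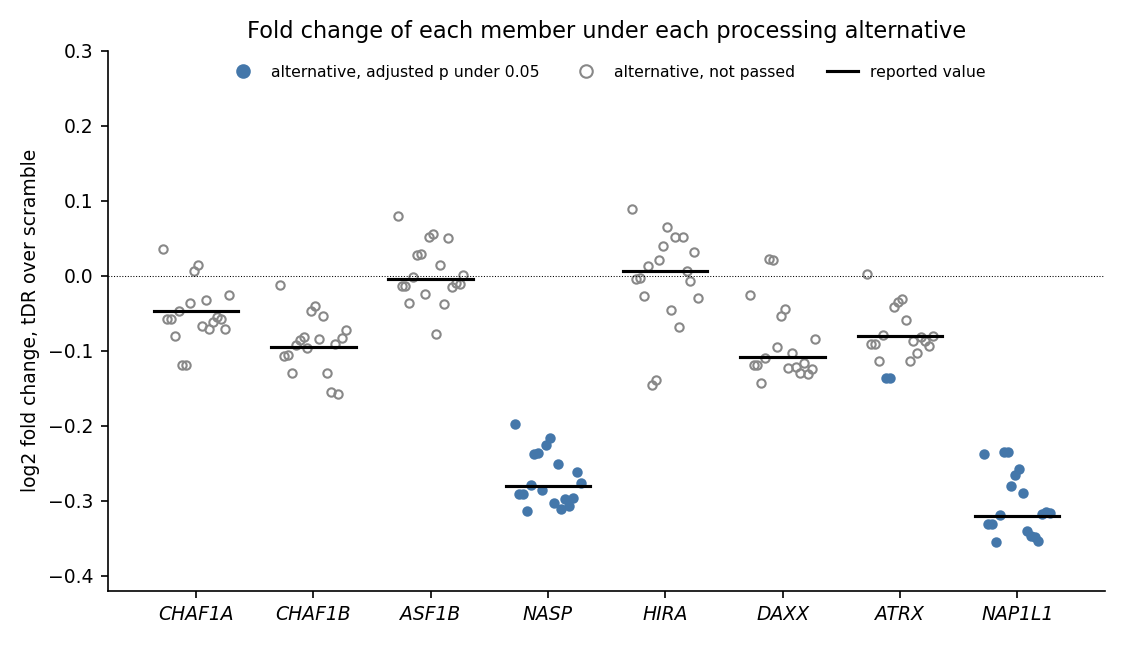
Log2 fold change of tDR over scramble (y axis) of each member under 18 processing alternatives (dots, filled where adjusted p is under 0.05), with the reported value as a line. NASP lies between -0.31 and -0.20 and NAP1L1 between -0.35 and -0.24, filled throughout; 2 dots of ATRX are filled.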

How the data were processed

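The authors deposited whole-number read counts per gene, 1 column per library and no normalization; all 8 columns matched a library by name. Per the labels' protocols RNA was taken with TRIzol and libraries were made with a stranded pico-input kit for total RNA. The submitters' processing notes list featureCounts 2.0.2, STAR 2.7.8a, DESeq2 1.30.1, cutadapt 2.10 and FastQC 0.11.9, and per the labels the builds are GRCh38.p13 and hg38; no settings, such as that for strand, were found in the labels. Counts were fitted with edgeR 4.0.16 in R 4.3.3 (quasi-likelihood F test, TMM factors, edgeR's filter on low counts, group as the only term), with Benjamini-Hochberg adjustment over 17184 genes. Intervals of fold changes are normal intervals from the SE. GENCODE 29 gave positions for 94.1% of genes. On simulated counts for these 17184 genes, 42% of genes changed 1.3-fold and 84% of those changed 2-fold were recovered, and 4.83% of calls were false. The changed genes were picked at random from all 17184, so these shares are not those at the members' levels. Only 50 genes were changed at each fold, whereas 24.3% of genes were called in the data. The Benjamini-Hochberg cut-off depends on how many genes change, so recovery and false calls in the data may differ from these shares. Each pair of libraries differed beyond counting noise (chi-square per degree of freedom 2.13 to 7.36).

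The members and lists were chosen with earlier results of these data known. By rule the text names all members, from each list at most 3 called genes (lowest p first), and RBBP4, UBN1 and CABIN1; the pseudogenes, NAP1L5, OIP5 and IPO4 were named after their values were seen. For 1 gene of the lists, single values are not reported here. The planned ratio of ASF1A to ASF1B could not be formed because ASF1A is at 0; all 28 pair ratios were added after the data were seen. Alternatives were other scalings, DESeq2 1.42.0, no filter, the replicate block, correction for length and GC content by splines, background subtraction and leaving out each library.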

Additional observations from a re-analysis of the deposited data

Results flagged for a closer look

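Among 54 groups of 4 libraries examined, 3 held a library set apart from its nearest neighbour by more than Dixon's 95% critical value; chance gives about 1 in 20 such groups. In the tDR group CHAF1B was at 77.8 CPM in replicate 2, with the others at 66.7 to 67.7 CPM, and without that library its log2 fold change was -0.16 and did not pass (adjusted p = 0.151 by edgeR with Benjamini-Hochberg correction). In the control group NAP1L1 was at 1031 CPM in replicate 1, with the others at 930 to 940 CPM. RBBP4 was at 186 CPM in control replicate 3, with the others at 195 to 197 CPM.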

How the results depend on the processing

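NASP and NAP1L1 were called lower under all 18 alternatives, between -0.31 and -0.20 and between -0.35 and -0.24 on the log2 scale. The replicate numbers did not pair the libraries (same-number correlations of -0.03 to 0.07, with 1 of 4 control libraries best matched by its own number), and with the replicate number as a block NASP was at -0.28, NAP1L1 at -0.32 and 3874 rather than 4168 genes were called. Background subtraction was planned with the whole gene span; the form with the span outside other genes, the exon length in the length and GC correction, all pair ratios and the split at 300 CPM were chosen after seeing the data. Where a value moved, the cause was not tested.

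Background subtraction, by whole span and by span outside other genes, left 2207 and 2029 genes called, 1093 and 997 of them lower and 1114 and 1032 higher; fewer genes were then tested (15096 and 14862). Library size alone gave 907 genes lower and moved the median of all genes to 0.10. Among H3-H4 partners 2 were called lower with library size alone and with either subtraction, and 3 to 5 when 1 library was left out. Of the HIRA, DAXX and ATRX partners 0 were lower with library size alone or either subtraction, 1 with any length and GC correction, 1 to 2 with 1 library left out, and 0 were higher with either subtraction. Library size alone gave 1 transcription-coupled gene higher and 0 centromere genes lower; 1 centromere gene was lower with any length and GC correction or either subtraction, and 1 to 2 with 1 library left out.

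Directions of some uncalled genes, and of H3-3A, turned under other settings. Some turned values were near 0, but HIRA reached -0.15 with length and GC correction. With library size alone CHAF1A was at 0.036, ASF1B at 0.080, ATRX at 0.0027, RBBP4 at 0.0076 and CABIN1 at 0.054. With the 2 subtractions CHAF1A was at 0.0066 and 0.014, ASF1B at 0.051 and 0.056, and CABIN1 at 0.019 and 0.025. With length and GC correction, without and with the replicate block, ASF1B was at 0.028 and 0.029, HIRA at -0.15 and -0.14, DAXX at 0.022 and 0.022, RBBP4 at 0.017 and 0.016, and H3-3A, which was called before, at 0.052 and 0.051. ATRX passed in these fits at -0.14 and -0.14, so that 3 members were called lower. HIRA was at -0.0045 with DESeq2's size factors, -0.0033 by DESeq2 and -0.027 with no filter. With 1 library left out ASF1B ranged from -0.078 to 0.050, HIRA from -0.069 to 0.052, and the log2 difference of the DAXX to ATRX ratio from -0.063 to 0.0095.

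Of 304 refits of the 17 named partner genes, 271 kept direction and call, 23 lost the call, 2 gained it and 8 turned direction. At the depth and spread of these 8 libraries 42% of simulated 1.3-fold changes, in genes picked at random over all levels, were recovered. Only 50 genes were changed at each fold, so this share need not hold where many more genes change. Recovery at the members' levels was not read separately, and the part of depth alone was not tested.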

Other observations

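The share of chaperone genes called lower was also read by level, a split made after the values were seen, on the mean over all 8 libraries, and given without a test. Of the 13 tested genes (members and lists together) with a mean of at least 300 CPM, 11 were called lower, with a median log2 fold change of -0.32. Of the 33 genes under 300 CPM 12 were called lower, with a median of -0.10. Over all genes tested, the shares called lower were 62% of 461 genes and 10% of 16723 genes. The 16723 genes include many at levels below the members' range. Within that range, 5.59 to 9.76 log2 CPM, 27.7% of 5321 genes were called lower, with a median of -0.08. NASP, NAP1L1 and ATRX are the members with a mean of at least 300 CPM.

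Genes inside other genes were also at 0 in the lists: NAP1L5 and OIP5, which lie whole inside other genes, had 0 counts in all libraries. IPO4, an importin of H3-H4 with 97.3% of its exon bases inside other genes, was at 0.348 ± 0.085 CPM in controls.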
